A study of Mus musculus with 9 samples.

Results

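The 32 genes described here encode the structural proteins of the cardiac sarcomere and Z-disc, together with a few proteins that assemble or degrade them. They were taken as a named list and matched by Ensembl identifier to the mouse build GRCm38. All 32 were found among the 49671 gene identifiers of the count tables, and 31 passed the filter on low counts, which left 15261 genes to test. The exception was Mybphl, a relative of myosin-binding protein, with 0 to 7 reads per library. The counts come from polyadenylated RNA of mouse left ventricle in 9 libraries. The knockout, called dSG in the labels after delta-sarcoglycan, the product of Sgcd, gave 3 libraries from animals given ifetroban (KO ifetroban) and 2 from animals given vehicle (KO vehicle). Wild-type mice gave 2 libraries with ifetroban (WT ifetroban) and 2 with vehicle (WT vehicle). Ifetroban blocks the thromboxane receptor. Strain, sex, age, dose and duration are not given in the sources used here. The labels do not state whether each library is a different animal, so the p-values describe the spread among these samples, part of which may be technical.

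The sarcomere is the contractile unit of muscle, in which thick filaments of myosin pull on thin filaments of actin, tropomyosin and troponin. Titin spans from the Z-disc, where thin filaments of neighbouring sarcomeres are anchored, to the M-band, where thick filaments are held together. Desmin and the Z-disc proteins link the contractile apparatus to the cell membrane, where delta-sarcoglycan sits in the dystrophin-associated complex.

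Each library held 21299748 to 31394548 counts in genes. Sgcd stood at 9.763, 16.37 and 18.49 CPM (counts relative to the TMM-adjusted library total) in KO ifetroban and at 7.486 and 12.06 CPM in KO vehicle, against 33.12 and 31.2 CPM in WT ifetroban and 11.13 and 28.92 CPM in WT vehicle. The library labelled WT vehicle replicate 1 therefore lay inside the knockout range. KO vehicle replicate 1 stood apart, with Timp1, a protease inhibitor, at 337.1 CPM against 0.9107 to 96.69 CPM elsewhere. In the library labelled WT vehicle replicate 1, Timp1 was at 3.181 CPM, below every KO library, the lowest of which had 10.08 CPM. The libraries also fell into 2 classes by gene length. In KO ifetroban replicate 1, both KO vehicle libraries and the library labelled WT vehicle replicate 1, long transcripts were low: Spearman's correlation of a gene's deviation with its exonic length was -0.4173 to -0.2901 across 15235 genes. In the other 5 libraries long transcripts were high, with correlations of 0.302 to 0.3865. Sgcd stood at 7.486 to 12.06 CPM in the KO libraries with long transcripts low and at 16.37 and 18.49 CPM in the other KO libraries. Among WT libraries it stood at 11.13 CPM where long transcripts were low and at 28.92 to 33.12 CPM where they were high. The cause was not tested. Because these genes include Ttn, the longest of the genes tested, values are also given with gene-wise length offsets in the model and within each class. Summed markers of cardiomyocytes, none a sarcomere protein, reached 31902 to 39816 CPM in KO and 42284 to 46051 CPM in WT libraries. A large part of these sums was Atp2a2, at 8869 to 15720 CPM in KO and 14130 to 17510 CPM in WT libraries. Mb, at 7754 to 10940 CPM in KO and 9045 to 12750 CPM in WT libraries, also overlapped between the genotypes. Averaged over treatments, 12 of the 14 markers were lower in the knockout, where 50.5% of all tested genes were, and 2 higher. In edgeR 0 of them had an adjusted p under 0.05, where 0.537% of all tested genes did. At an unadjusted p under 0.05 in edgeR there were 5 of 14 (35.7%), against 16.5% of all tested genes. DESeq2 called 1 of the 14, where it called 4.94% of all genes. Summed macrophage markers reached 319.88 to 407.68 CPM in KO and 170.85 to 240.19 CPM in WT libraries, and fibroblast markers 923.95 to 1354.4 CPM in KO and 750.27 to 836.61 CPM in WT libraries. Of the fibroblast markers, Col1a1 stood at 218.4 to 298.3 CPM in KO and 112.7 to 171.2 CPM in WT libraries. Dcn stood at 392.7 to 595.2 CPM in KO and 354 to 412.4 CPM in WT libraries. All 6 were above 0 averaged over treatments, where 49.5% of all tested genes were, but each except Col1a1 overlapped between the genotypes. Smooth muscle markers were at 373.18 to 558.56 CPM in KO and 333.86 to 476.16 CPM in WT libraries, and endothelial markers at 649.98 to 960.15 CPM in all 9. The 4 atrial markers summed to 1.418 to 2.896 CPM, and Sln had 3 reads or fewer in every library. Skeletal muscle markers summed to 49.73 CPM in KO ifetroban replicate 3 and to 2.415 to 5.766 CPM in the other libraries.

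The promoter windows of 28 of the 32 genes were found in RefSeq (GRCm38.p6), each from 250 bases before to 50 bases after a transcription start. The windows of Synpo2l, Flnc and Ttn are printed because the first 2 of these genes had the largest knockout differences and the third is the longest transcript. Capitals mark matches, on either strand, to the muscle motifs of MEF2 (by its consensus) and of M-CAT (CATTCC). The windows lie at chr14:20668305-20668604 on the minus strand for Synpo2l, chr6:29433006-29433305 on the plus strand for Flnc and chr2:76982498-76982797 on the minus strand for Ttn.
Synpo2l: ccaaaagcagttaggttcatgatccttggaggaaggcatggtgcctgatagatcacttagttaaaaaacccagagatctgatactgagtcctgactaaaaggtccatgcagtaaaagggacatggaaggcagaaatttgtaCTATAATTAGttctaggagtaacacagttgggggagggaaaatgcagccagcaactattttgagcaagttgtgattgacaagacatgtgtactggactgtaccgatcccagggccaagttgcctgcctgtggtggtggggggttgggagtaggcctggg
Flnc: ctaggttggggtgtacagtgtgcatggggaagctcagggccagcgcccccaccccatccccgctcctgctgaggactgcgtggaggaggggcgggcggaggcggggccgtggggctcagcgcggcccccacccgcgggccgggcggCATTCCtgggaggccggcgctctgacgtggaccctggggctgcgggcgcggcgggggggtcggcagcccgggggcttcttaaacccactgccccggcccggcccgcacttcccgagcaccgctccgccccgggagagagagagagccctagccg
Ttn: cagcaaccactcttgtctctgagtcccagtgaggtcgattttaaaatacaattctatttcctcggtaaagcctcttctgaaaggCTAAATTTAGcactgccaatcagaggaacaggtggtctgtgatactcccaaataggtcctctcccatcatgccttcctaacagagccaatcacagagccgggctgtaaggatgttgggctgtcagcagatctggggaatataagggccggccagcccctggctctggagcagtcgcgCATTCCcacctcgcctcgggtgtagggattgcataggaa
The MEF2 match of Synpo2l begins 109 bases before the start and that of Ttn 166 bases before it. The M-CAT match of Flnc begins 104 bases before the start, and that of Ttn 11 bases after it. The 28 genes have 38 windows. MEF2 matches occurred in 5 of these, from 4 genes (Synpo2l, Ttn, Mybpc3 and Myoz2), where 3.19% of all 32851 RefSeq windows hold one. CArG matches, the motif of serum response factor, occurred in 5 of the 38 windows, from Ldb3, Myl3, Myom1 and Nebl, where 1.63% of all windows hold one. M-CAT matches occurred in 12 of the 38 windows, from 11 genes, among them Flnc, Tnnc1 and Tnnt2, where 14.7% of all windows hold one. Some genes have more than one window, and a match is a description of these letters only.

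The genes took 4.824% to 5.207% of all gene counts in each library. Per kilobase of exonic length, the ventricular light chain Myl3 had the highest median level, at 2440 CPM per kb, followed by the troponin genes Tnnc1 at 1760 CPM per kb and Tnni3 at 1480 CPM per kb. Tcap, which caps titin at the Z-disc, followed at 1160 CPM per kb and the main cardiac tropomyosin gene Tpm1 at 1060 CPM per kb. Among the rest, Mybpc3, the cardiac myosin-binding protein that sits along the thick filament, had 970 CPM per kb, the intermediate filament gene Des 625 CPM per kb and Ttn 54.6 CPM per kb. Exonic length counts every annotated exon of a gene. Per kilobase of the longest transcript instead, Tnni3 at 3340 CPM per kb stood above Tnnc1 at 2540 CPM per kb, and Tpm1 at 2370 CPM per kb and Tnnt2 at 1930 CPM per kb both stood above Tcap.

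**Figure D1:**
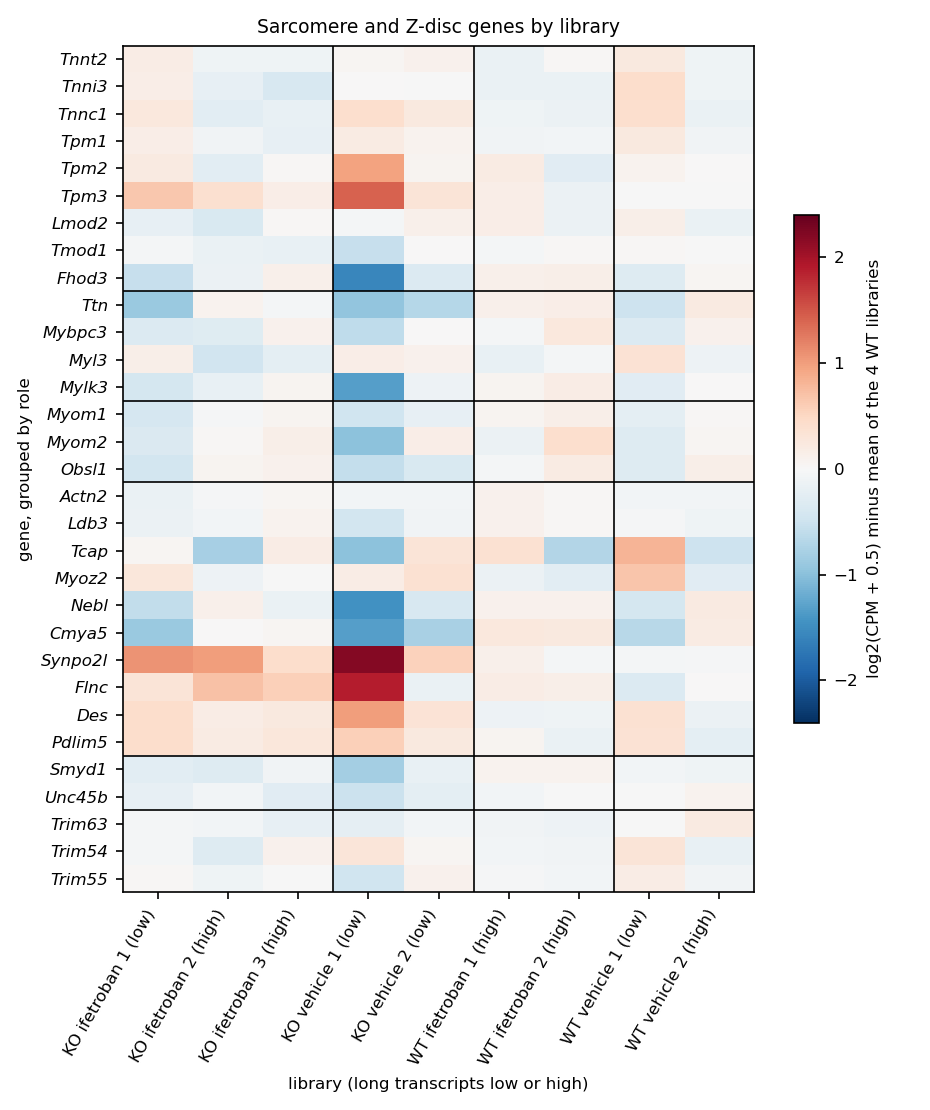
Each row is a gene, grouped by role from thin filament (top) to ubiquitin ligases (bottom), and each column a library; colour gives log2(CPM + 0.5) minus the mean of the 4 WT libraries. Red fields for Synpo2l and Tpm3 span the 5 KO libraries, while Ttn and Cmya5 are blue in the 4 libraries with long transcripts low, 1 of them WT.

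The least variable of the tested genes was Actn2, alpha-actinin of the Z-disc, whose highest library exceeded its lowest 1.19-fold. Its levels were 1740, 1901 and 1999 CPM in KO ifetroban and 1851 and 1841 CPM in KO vehicle, against 2070 and 1971 CPM in WT ifetroban and 1859 and 1862 CPM in WT vehicle. The most variable were Synpo2l at 4.81-fold and Flnc at 4.66-fold, both with their highest value in KO vehicle replicate 1. Tcap followed at 3.49-fold, with 1095, 608.4 and 1188 CPM in KO ifetroban and 533 and 1314 CPM in KO vehicle, against 1361 and 650.5 CPM in WT ifetroban and 1862 and 751.6 CPM in WT vehicle. Replicates of each group lay far apart and all 4 groups overlapped. Nebl, a Z-disc relative of nebulin, and Mylk3, the cardiac myosin light chain kinase, spanned 3.18-fold and 2.85-fold, each with its lowest value in KO vehicle replicate 1, at 115.7 and 269.8 CPM. The remaining tested genes spanned 1.32-fold to 3.28-fold, the widest being the formin gene Fhod3.

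The libraries were put into classes by their correlation with gene length. Differences between the classes therefore follow length across all genes by construction and are given here as a description. Single genes departed from that trend. The mean log2 difference between the 4 libraries with long transcripts low and the 5 with long transcripts high had a Spearman correlation of -0.562 with length across the 31 genes, and of -0.538 across 15235 genes. Genes share libraries here and are not independent. There were 7 genes, Ttn, Cmya5, Nebl, Fhod3, Myom1, Obsl1 and Actn2, that were lower in every library of the first class than in any of the second, where 13.6% of tested genes were. The largest such difference was that of Cmya5, which encodes the desmin- and titin-binding protein myospryn, at -1.06 on the log2 scale. The opposite order held for 7 genes, Tnnt2, Tnni3, Tnnc1, Tpm1, Myl3, Myoz2 and Des, where 12.4% of tested genes showed it. Tnnc1, troponin C, was 0.49 higher on the log2 scale. Tnnt2 and Tpm1 were 0.228 and 0.266 higher, where the medians of tested genes of similar length were -0.218 and -0.11. Cmya5 and Fhod3, at -1.06 and -0.751, lay below such medians of -0.313 and -0.178. The ratio of Ttn to Tnnc1 counts was 1.31 to 1.79 in the libraries with long transcripts low and 3.65 to 4.28 in those with long transcripts high, with no overlap between the classes. The first class held 3 KO libraries and 1 WT library, labelled WT vehicle replicate 1, and the second 2 KO and 3 WT libraries.

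**Figure D2:**
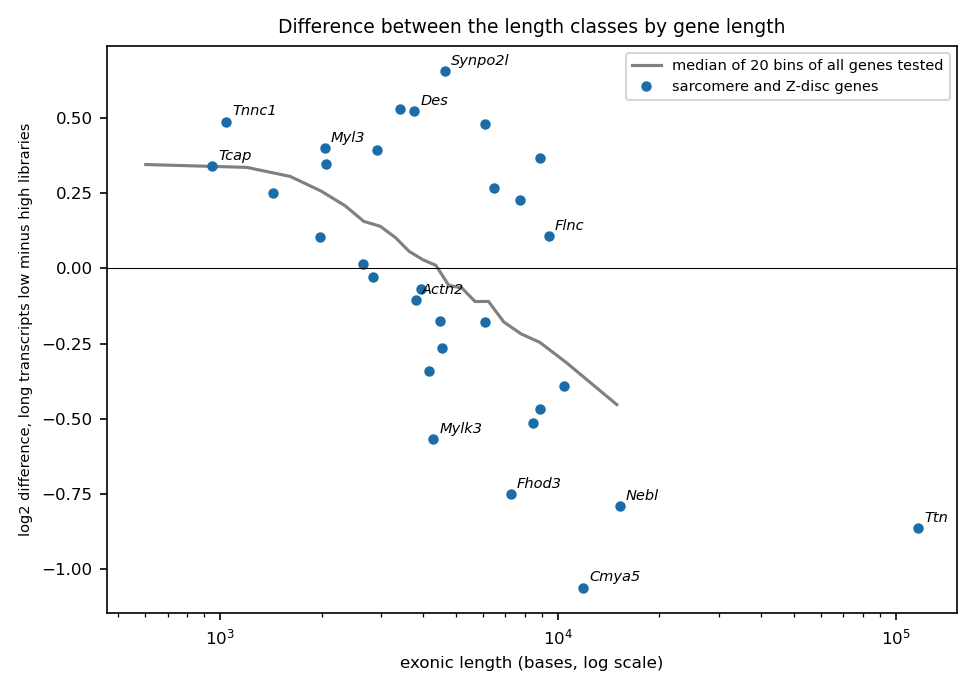
The horizontal axis gives exonic length in bases on a log scale and the vertical axis the log2 difference between libraries with long transcripts low and high; points are the 31 genes and the grey line the median of 20 length bins of all genes tested. Ttn, Nebl, Fhod3 and Cmya5 lie lowest, at -1.06 for Cmya5, and Synpo2l and Flnc lie above the line.

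Knockout and wild-type ventricles differed most in a few Z-disc and thin filament genes, but none of the 31 genes was called. Synpo2l, Tpm3, Des, Flnc and Pdlim5 were higher in the knockout averaged over treatments, and Cmya5, Ttn, Unc45b and Smyd1 lower, at unadjusted p only. In edgeR's quasi-likelihood test with Benjamini-Hochberg adjustment, 0 of 31 reached an adjusted p of 0.05, where 0.537% of all tested genes did. At an unadjusted p under 0.05, 5 of 31 were higher, against 10.6% of all tested genes, and 4 were lower, against 5.94%. DESeq2 called Synpo2l and Tpm3, where it called 4.94% of all genes. Without KO vehicle replicate 2, which leaves that group to the library that stood apart, edgeR called 8 of the 31 genes and 13.1% of all genes. The median log2 fold change was -0.10 over the 31 genes and -0.004 over all genes tested. That of the 31 genes was -0.162 to -0.038 with single libraries left out, nearest 0 without KO vehicle replicate 1 and furthest from it without KO vehicle replicate 2. It was 0.048 with both replicate 1 libraries of the vehicle groups left out. Of the 31 genes, 11 were above 0, where 49.5% of all tested genes were, and 20 below, where 50.5% were.

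Synpo2l encodes an actin-associated Z-disc protein enriched in heart (chr14:20658946-20668354, minus strand). It stood at 291.3, 275.6 and 184.9 CPM in KO ifetroban and 637.6 and 202.7 CPM in KO vehicle, against 150.2 and 132.8 CPM in WT ifetroban and 132.6 and 134.5 CPM in WT vehicle. All 5 KO libraries were above all 4 WT libraries. The averaged log2 fold change was 1.24 ± 0.30 (SE), with an edgeR adjusted p of 0.092, and 1.23 with length offsets. Without KO vehicle replicate 1 it was 0.72, and without KO vehicle replicate 2 it was 1.54 with an edgeR adjusted p of 0.00156. Only Synpo2l and Tpm3 of the 31 genes had all KO libraries above all WT libraries, where 5.03% of tested genes did.

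Tpm3, a tropomyosin gene of slow muscle and non-muscle cells (chr3:90072649-90100902, plus strand), stood at 68.67, 57.18 and 48.99 CPM in KO ifetroban and 117.2 and 54.01 CPM in KO vehicle, against 48.91 and 39.2 CPM in WT ifetroban and 43.35 and 43.21 CPM in WT vehicle. KO ifetroban replicate 3 and WT ifetroban replicate 1 nearly met. The averaged log2 fold change was 0.69 ± 0.22 (SE; edgeR adjusted p = 0.177), and 0.36 without KO vehicle replicate 1. Tropomyosin genes are near-identical in places, and reads that map to several places were not counted, so their levels rest on unique stretches.

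Des, which encodes the muscle intermediate filament protein desmin (chr1:75360329-75368579, plus strand), stood at 2674, 2263 and 2348 CPM in KO ifetroban and 4008 and 2509 CPM in KO vehicle, against 1830 and 1851 CPM in WT ifetroban and 2565 and 1807 CPM in WT vehicle. The groups overlapped through the library labelled WT vehicle replicate 1. Its averaged log2 fold change was 0.49 ± 0.17 (SE; edgeR adjusted p = 0.206), and 0.30 without KO vehicle replicate 1. Flnc encodes filamin C, an actin cross-linker known to bind sarcoglycans (chr6:29433256-29461883, plus strand). It stood at 583.3, 766.9 and 696.5 CPM in KO ifetroban and 1743 and 417.6 CPM in KO vehicle, against 529.5 and 519.9 CPM in WT ifetroban and 374.2 and 470.8 CPM in WT vehicle. KO vehicle replicate 2 lay within the WT range. The averaged log2 fold change of Flnc was 0.87 ± 0.34 (SE; edgeR adjusted p = 0.249), and 0.18 without KO vehicle replicate 1.

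**Figure D3:**
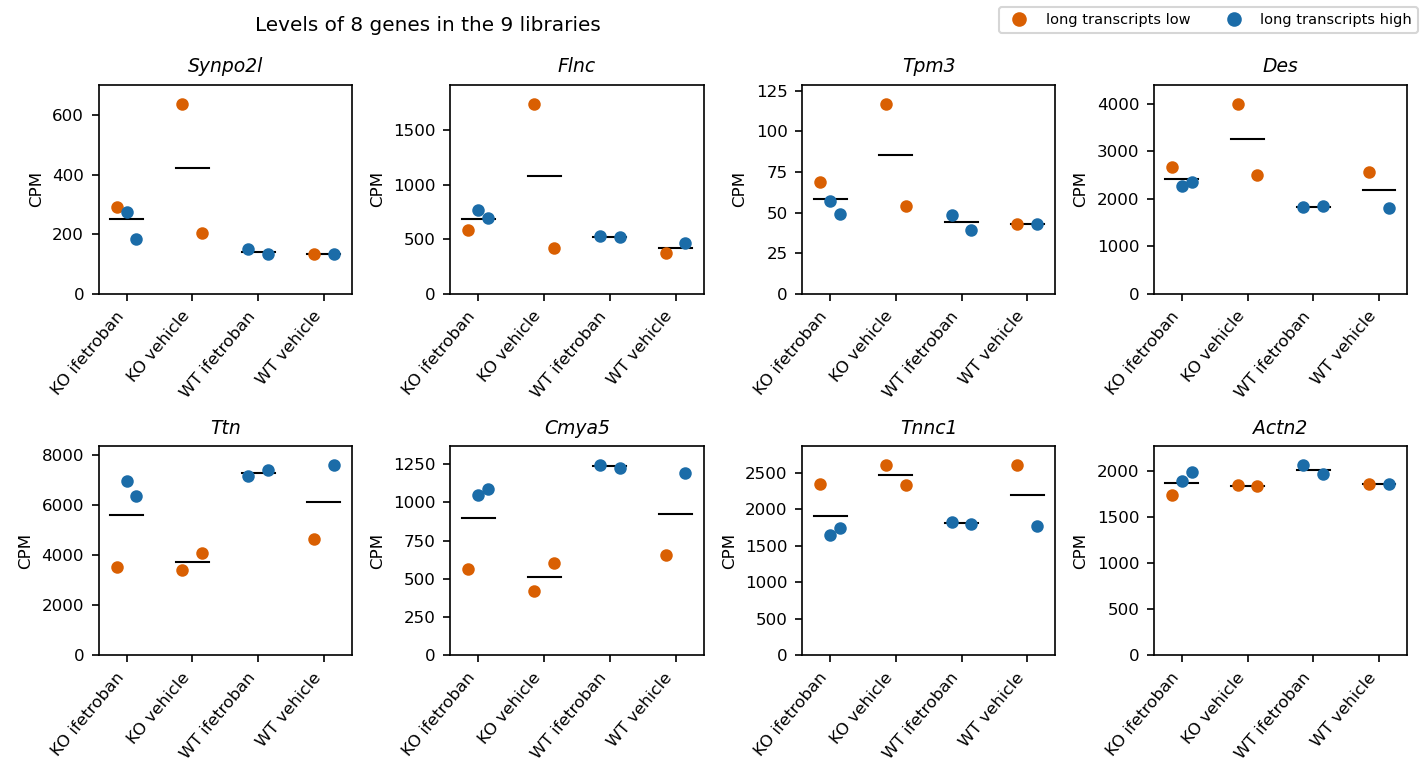
CPM of 8 genes in the 9 libraries, by group; points are libraries, coloured by length class, and lines are group means. Synpo2l is at or above 184.9 CPM in all KO libraries and at or below 150.2 CPM in all WT libraries, whereas Ttn and Cmya5 separate by colour.

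Ttn, the giant spring of the sarcomere (chr2:76703980-76982547, minus strand), stood at 3545, 6934 and 6373 CPM in KO ifetroban and 3402 and 4083 CPM in KO vehicle, against 7155 and 7389 CPM in WT ifetroban and 4658 and 7589 CPM in WT vehicle. KO ifetroban replicates 2 and 3 exceeded the library labelled WT vehicle replicate 1. The averaged log2 fold change was -0.54 ± 0.22 (SE; edgeR adjusted p = 0.263) as deposited, -0.06 with length offsets and -0.21 with a term for the length class. Cmya5 (chr13:93040713-93144724, minus strand) stood at 563.3, 1047 and 1087 CPM in KO ifetroban and 420 and 606.4 CPM in KO vehicle, against 1243 and 1224 CPM in WT ifetroban and 657.9 and 1193 CPM in WT vehicle. It was low in all libraries with long transcripts low. Its averaged log2 fold change was -0.65 ± 0.24 (SE; edgeR adjusted p = 0.231) as deposited, -0.50 with length offsets and -0.28 with a term for the length class. Without the library labelled WT vehicle replicate 1, the averaged fold changes as deposited were -0.71 for Ttn and -0.85 for Cmya5, and without WT vehicle replicate 2 they were -0.35 and -0.42.

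Among the 9 tested thin filament genes, 5 averaged fold changes were above 0 and 4 below, with a median of 0.03 on the log2 scale. Tnnc1 stood at 2348, 1654 and 1746 CPM in KO ifetroban and 2603 and 2331 CPM in KO vehicle, against 1832 and 1805 CPM in WT ifetroban and 2608 and 1774 CPM in WT vehicle, and both genotypes spanned the same range. The 4 tested thick filament genes were all below 0, with a median of -0.31. Myl3 stood at 5661, 3746 and 4399 CPM in KO ifetroban and 5787 and 5553 CPM in KO vehicle, against 4538 and 4978 CPM in WT ifetroban and 6595 and 4754 CPM in WT vehicle. Its groups overlapped, with a log2 fold change of -0.03. The 3 M-band genes were below 0, with a median of -0.22. Myom1, which cross-links thick filaments there, stood at 1200, 1569 and 1674 CPM in KO ifetroban and 1148 and 1384 CPM in KO vehicle, against 1679 and 1760 CPM in WT ifetroban and 1350 and 1624 CPM in WT vehicle. The M-band genes are long, at 8467 to 10459 exonic bases. With vehicle, Myom1, Myom2 and Obsl1 were at -0.232, -0.182 and -0.411 as deposited and at -0.063, -0.055 and -0.272 with length offsets. Myom2 was at 0.026 there with a term for the length class. With ifetroban they were at -0.215, -0.205 and -0.154 as deposited and at -0.12, -0.133 and -0.092 with length offsets.

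The 2 genes of myosin assembly were below 0 in every knockout comparison. Smyd1, a lysine methyltransferase needed for sarcomere assembly, stood at 478.7, 465.8 and 543.4 CPM in KO ifetroban and 326 and 505.4 CPM in KO vehicle, against 609.6 and 606.9 CPM in WT ifetroban and 551.7 and 531.5 CPM in WT vehicle. Its averaged log2 fold change was -0.34 ± 0.14 (SE; edgeR adjusted p = 0.28), and -0.20 without KO vehicle replicate 1. Only KO ifetroban replicate 3 exceeded any WT library. Unc45b, a myosin chaperone, stood at 188.6, 206.8 and 179.1 CPM in KO ifetroban and 150.6 and 183.1 CPM in KO vehicle, against 206.6 and 215.4 CPM in WT ifetroban and 215.9 and 229.4 CPM in WT vehicle. KO ifetroban replicate 2 just reached the WT range. Of the muscle ubiquitin ligases, Trim54 stood at 250.2, 207.6 and 276.7 CPM in KO ifetroban and 315.4 and 266.4 CPM in KO vehicle, against 248.5 and 245.3 CPM in WT ifetroban and 318.7 and 229.9 CPM in WT vehicle. The 3 ligases had averaged log2 fold changes of -0.12 to 0.04. In bulk tissue, fewer cardiomyocytes and less RNA per cardiomyocyte cannot be told apart, and the part of the marker differences given above in these results was not tested.

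**Figure D4:**
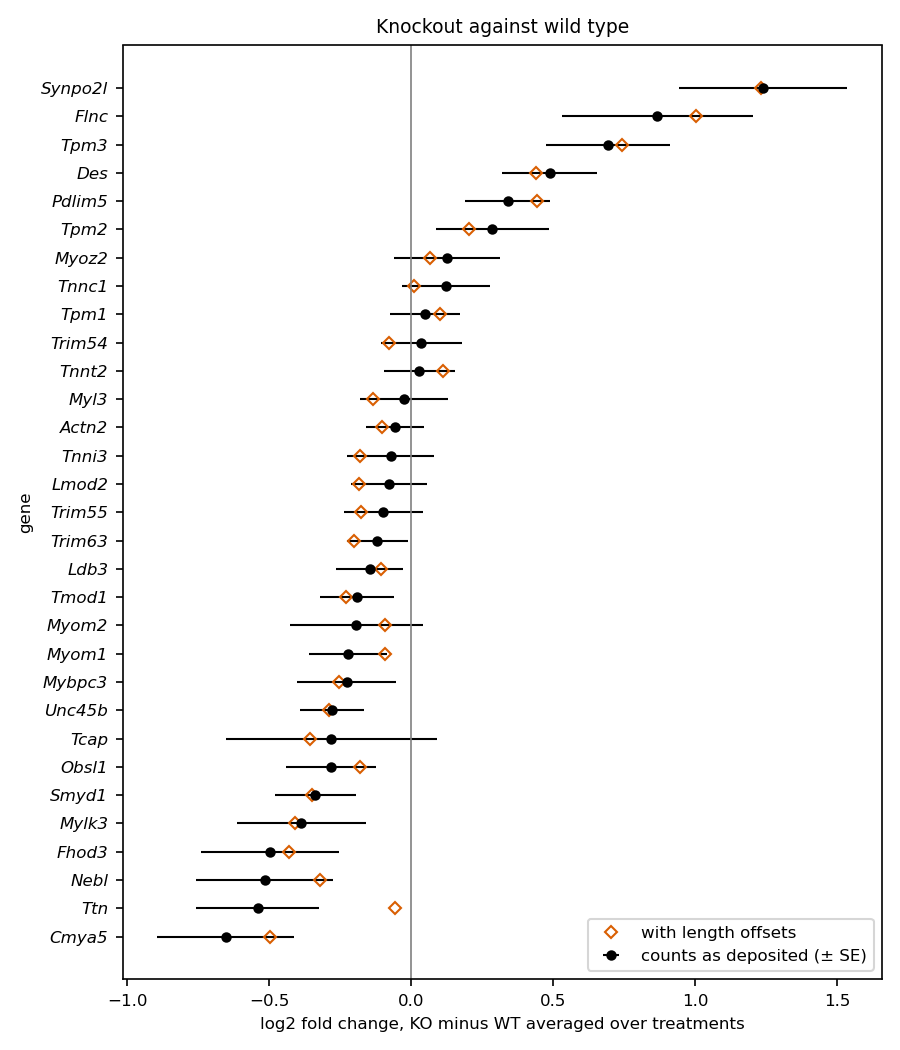
Averaged log2 fold change, KO minus WT, of the 31 tested genes; filled points with bars are the counts as deposited (± SE) and open diamonds the model with length offsets. Synpo2l lies highest at 1.24, and the diamond of Ttn lies at -0.06 against -0.54 as deposited.

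Within the length classes the knockout comparison rests on 3 KO libraries against the single library labelled WT vehicle replicate 1 where long transcripts were low, and on 2 KO against 3 WT libraries where they were high. Synpo2l was higher in the KO libraries of both classes, by 1.34 and 0.70 on the log2 scale, as were Flnc, by 1.005 and 0.53, and Tpm3, by 0.80 and 0.28. These 3 of 31 genes had no overlap in either class, where 9.28% of tested genes did. Without overlap in either class, 6 genes were lower, Ttn, Cmya5, Tnni3, Tnnc1, Myl3 and Tmod1, where 8.63% of tested genes were. Ttn differed by -0.35 and -0.15 and Cmya5 by -0.33 and -0.19. Des, by 0.33, and Pdlim5, by 0.34, were higher without overlap where long transcripts were high and overlapped in the other class. Counted per class, 3 of 31 genes were higher in all KO libraries where long transcripts were low, against 26.7% of tested genes, and 6 of 31 where they were high, against 16.6%. In the class with 1 WT library, 20 of 31 genes were lower in all KO libraries, where 31.5% of tested genes were; without that library, in the other class, 6 of 31 were, where 15.5% of tested genes were. These class differences carry no test.

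**Figure D5:**
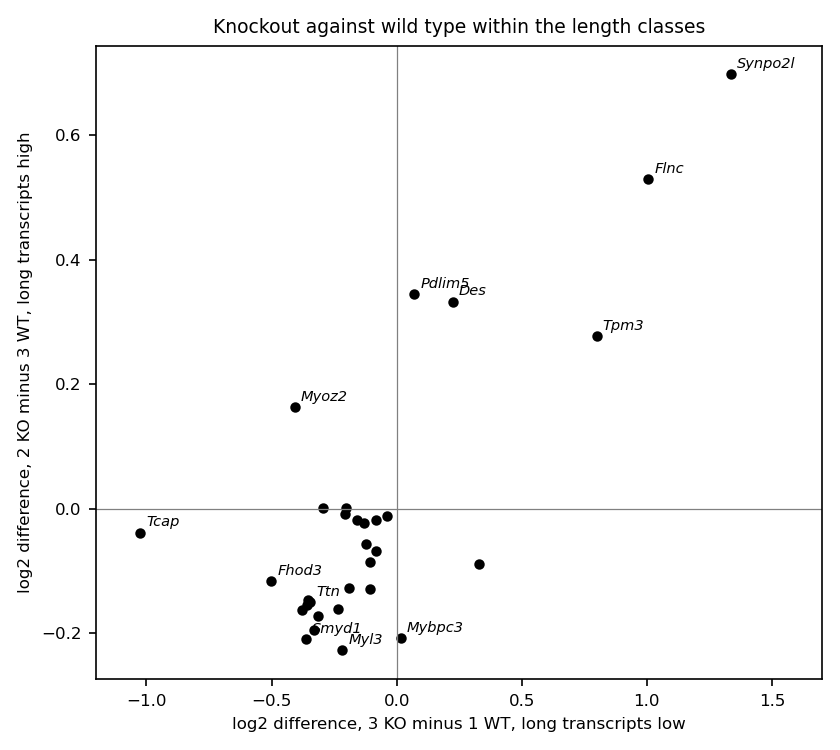
Log2 difference KO minus WT within the libraries with long transcripts low (horizontal axis, 3 KO and 1 WT) and high (vertical axis, 2 KO and 3 WT); each point is a gene. Synpo2l, Flnc and Tpm3 lie furthest towards the upper right, and Tcap at -1.02 on the horizontal axis lies near 0 on the vertical axis.

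With vehicle alone, Synpo2l, Tpm3 and Flnc had the largest positive knockout differences, and Unc45b and Cmya5 were lower. Again 0 of 31 genes were called by edgeR, where 0.0524% of all tested genes were; at an unadjusted p under 0.05, 4 were higher, against 8.26% of all genes, and 2 lower, against 4.25%. The log2 fold change was 1.65 ± 0.44 (SE; edgeR adjusted p = 0.241) for Synpo2l and 0.98 ± 0.32 (SE; edgeR adjusted p = 0.299) for Tpm3. These were 0.60 and 0.32 without KO vehicle replicate 1. Flnc was at 1.35 ± 0.50 (SE; edgeR adjusted p = 0.341), but at -0.015 without KO vehicle replicate 1, and Unc45b was at -0.42 ± 0.17 (SE; edgeR adjusted p = 0.365). Ttn was at -0.71 ± 0.32 (SE; edgeR adjusted p = 0.4), at -0.12 with length offsets and at -0.33 with WT vehicle replicate 2 left out. Without KO vehicle replicate 2, which leaves the group to the library that stood apart, 9 of 31 genes were called, where 10.9% of all genes were. DESeq2 called Synpo2l alone among the 31 genes, with an adjusted p of 0.00664, where it called 2.44% of all genes.

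With ifetroban in both genotypes, Synpo2l, Des and Pdlim5 had positive knockout differences and Smyd1 a negative one, and none of the 31 genes was called. The share of all tested genes called was 0.0131% by edgeR and 0.452% by DESeq2. No member had an unadjusted p under 0.05 in edgeR, where 3.85% of all tested genes did with higher values in the knockout and 0.852% with lower ones. The log2 fold change was 0.82 ± 0.40 (SE; edgeR adjusted p = 0.979) for Synpo2l and 0.40 ± 0.23 (SE; edgeR adjusted p = 0.979) for Des. Pdlim5, a PDZ and LIM protein of the Z-disc, stood at 930, 789.1 and 836.1 CPM in KO ifetroban and 1024 and 815.5 CPM in KO vehicle, against 721.7 and 618.1 CPM in WT ifetroban and 874.7 and 585.8 CPM in WT vehicle. Its log2 fold change was 0.35 ± 0.20 with ifetroban (SE; edgeR adjusted p = 0.979), and that of Smyd1 was -0.29 ± 0.19 (SE; edgeR adjusted p = 0.979). Ttn was at -0.37 ± 0.29 (SE; edgeR adjusted p = 0.979) and at 0.01 with length offsets. KO ifetroban replicate 3 carried the skeletal muscle markers; without it the fold change of Synpo2l was 0.99.

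Ifetroban against vehicle within the knockout moved none of the 31 genes past the threshold. The groups overlapped for Cmya5, Tpm2, Ttn and Fhod3, the 4 genes with the smallest p. The share of all tested genes called was 0% by edgeR and 0.0197% by DESeq2. At an unadjusted p under 0.05, 1 of 31 genes, Cmya5, was higher, against 2.59% of all tested genes, and 0 of 31 lower, against 2.44%. Without KO vehicle replicate 2, which leaves the vehicle group to the library that stood apart, edgeR called 5 of the 31 genes and 2.82% of all genes in this comparison. With all 9 libraries, the log2 fold change of Cmya5 was 0.81 ± 0.33 (SE, edgeR adjusted p = 0.688) as deposited. It was 0.53 with length offsets and 0.15 with a term for the length class. Ttn was at 0.59 ± 0.30 (SE; edgeR adjusted p = 0.688) and at -0.04 with length offsets. Fhod3, a formin of the thin filament, stood at 256.2, 341.3 and 409.1 CPM in KO ifetroban and 126.3 and 300.5 CPM in KO vehicle, and the groups overlapped, with a log2 fold change of 0.65 ± 0.33 (SE; edgeR adjusted p = 0.688). Without KO vehicle replicate 1 it was 0.16. Tpm2 stood at 34.24, 24.71 and 30 CPM in KO ifetroban and 57.93 and 30.95 CPM in KO vehicle, with a log2 fold change of -0.58 ± 0.26 (SE; edgeR adjusted p = 0.688). That of Tpm2 was -0.06 without KO vehicle replicate 1. Both KO vehicle libraries, and 1 of the 3 KO ifetroban libraries, had long transcripts low.

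In the wild type, 0 of 31 genes were called by edgeR or DESeq2 with ifetroban, and edgeR called 0% of all tested genes. No member had an unadjusted p under 0.05, where 0.315% of all tested genes were higher and 0.944% lower at that level. The log2 fold change was -0.48 ± 0.28 (SE; edgeR adjusted p = 0.999) for Myoz2, a calcineurin-binding Z-disc protein. Myoz2 stood at 659 and 609 CPM in WT ifetroban, against 1166 and 607.9 CPM in WT vehicle; the difference lay in the library labelled WT vehicle replicate 1, and it was 0.06 without it. Tnni3 stood at 2948 and 2940 CPM in WT ifetroban, against 4367 and 3043 CPM in WT vehicle, and was at -0.33 ± 0.23 (SE; edgeR adjusted p = 0.999), and at -0.045 without that library. Trim63, a ubiquitin ligase of muscle atrophy, stood at 174.8 and 170.5 CPM in WT ifetroban, against 186.2 and 217.4 CPM in WT vehicle, and was at -0.22 ± 0.16 (SE; edgeR adjusted p = 0.999), and at -0.09 without WT vehicle replicate 2. Across the 31 genes the fold changes had a Spearman correlation with length of 0.724 as deposited and of 0.0875 with length offsets. Across 15235 genes it was 0.443 as deposited and 0.0199 with length offsets. The library labelled WT vehicle replicate 1 was the only WT library with long transcripts low. Ttn was at 0.25 ± 0.32 (SE; edgeR adjusted p = 0.999) and at -0.18 with length offsets.

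The difference between the genotypes in their response to ifetroban was called for 0% of all tested genes by edgeR and for none by DESeq2. Of the 31 genes, 0 had an unadjusted p under 0.05, where 0.74% of all tested genes were above 0 and 0.642% below at that level. The interaction was -0.98 ± 0.66 on the log2 scale for Flnc (SE; edgeR adjusted p = 1) and 0.39 without KO vehicle replicate 1. It was -0.83 ± 0.58 for Synpo2l and 0.22 without that library, and -0.58 ± 0.43 for Tpm3 and 0.08 without it. Tpm2 was at -0.52 ± 0.40 and Ttn at 0.34 ± 0.43, all with an edgeR adjusted p of 1. The comparisons within genotypes and treatments share libraries and are not independent.

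Among 43 other sarcomere and Z-disc genes chosen by function, 38 were tested and edgeR called 0 in each of the 6 comparisons. Averaged over treatments, 24 were above 0 and 14 below, with a median log2 fold change of 0.12, where the median over all genes was -0.004. At an unadjusted p under 0.05 there were 7 in the averaged comparison, 18.4% of the 38 against 16.5% of all tested genes, and 6 with vehicle, 15.8% against 12.5%. DESeq2 called 2 in the averaged comparison, where it called 4.94% of all genes, and 0 in the others. In vehicle-treated hearts the smallest p belonged to Mybpc2, a skeletal myosin-binding protein, at 0.96 ± 0.29 (SE; edgeR adjusted p = 0.275), and to Tpm4, a cytoskeletal tropomyosin, at 0.97 ± 0.34 (SE; edgeR adjusted p = 0.331). Xirp2, a Z-disc actin-binding protein, followed at 0.76 ± 0.27 (SE, edgeR adjusted p = 0.335). Fhl1, a LIM protein of the sarcomere, was at 1.49 ± 0.55 (SE, edgeR adjusted p = 0.343). Each of these genes had its highest value in KO vehicle replicate 1, the library that stood apart. In KO vehicle, Fhl1 stood at 778.6 and 223.2 CPM, against 126 to 230.8 CPM in WT libraries. Xirp2 stood at 1921 and 957.5 CPM, against 832 to 1090 CPM. Tpm4 stood at 256.1 and 125.2 CPM, against 83.42 to 116 CPM, and Mybpc2 at 43.24 and 26.27 CPM, against 14.02 to 21.8 CPM.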

How the data were processed

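Polyadenylated RNA of left ventricle was sequenced in 9 libraries. The authors deposited raw read counts per gene, whole numbers with no normalization. The submitters' processing notes name STAR 2.5.2b, HTSeq and the build GRCm38; the annotation release is not given in the sources used here. The stranded count column was used, which held 14.5 times the counts of the opposite one. Rows that name no gene were left out. They held 30.6% to 31.9% of the reads in the 4 libraries with long transcripts low and 26.6% to 28.7% in the other 5. Of 49671 identifiers, 49412 were matched to the GENCODE annotation.

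Counts were tested in edgeR 4.0.16 (R 4.3.3; limma 3.58.1) with the quasi-likelihood F test, TMM normalization and the filterByExpr filter. The model had 1 coefficient per group, the spread was estimated over all 9 libraries, and p-values were two-sided and adjusted by Benjamini-Hochberg over 15261 genes (threshold 0.05). Standard errors are approximate, from the log2 fold change and the F statistic. Differences within length classes used log2(CPM + 0.5). Length offsets were loess fits of each library's deviation on gene length (span 0.3). DESeq2 1.42.0 was an alternative. Replicates differed by more than sampling noise (chi-square per degree of freedom 14.4 to 88.9). The script was tested on simulated data.

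The members and lists were chosen with earlier results of these data known. Genes with full statistics are those called, the 4 with the smallest p per comparison, and Ttn. Levels per library are given for these and for the gene of each role with the highest level per kb. Genes outside that rule that are named with values, such as Actn2 and Pdlim5 in the averaged comparison, were chosen after their values were seen. Reads of genes that overlap on 1 strand, as Tnni3 and Dnaaf3 do, are uncertain.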

Additional observations from a re-analysis of the deposited data

How the results depend on the processing

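Of the single-gene values under other settings, 499 kept their direction and their side of the threshold, 23 passed it and 19 changed sign. Comparisons are given in the order knockout with vehicle, knockout with ifetroban, ifetroban in the knockout, ifetroban in the wild type, averaged knockout and interaction. Of the 31 genes, edgeR called 0 in each; without the filter on low counts it called 7, 1, 2, 0, 8 and 0, and DESeq2 called 1, 0, 0, 0, 2 and 0. With single libraries left out the number was 0 to 9 for the knockout with vehicle, 0 to 5 for ifetroban in the knockout and 0 to 8 for the averaged knockout, the highest each without KO vehicle replicate 2. Of all 27246 genes fitted without the filter, edgeR called 1195, 428, 428, 34, 1684 and 73. Of the 15261 genes tested with it, edgeR called 8, 2, 0, 0, 82 and 0, and DESeq2 373, 69, 3, 0, 754 and 0. For the knockout with vehicle, the knockout with ifetroban and the averaged knockout, a term for the length class gave 1, 1 and 9, and leaving out both KO vehicle replicate 1 and WT vehicle replicate 1, chosen after seeing the data, gave 2, 14 and 25. Fitting only the groups compared gave 5 for the knockout with vehicle and 12 with ifetroban, library totals gave 1 with ifetroban, and length offsets gave 18 with vehicle and 141 averaged. Single libraries left out gave 1 to 1734 with vehicle, 1 to 8 with ifetroban, 0 to 450 for ifetroban in the knockout and 2 to 2098 averaged. The cause was not tested.

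The median log2 fold change of the 31 genes was -0.338 to -0.006 for the knockout with vehicle, -0.048 to 0.129 for ifetroban in the knockout and -0.057 to 0.245 for the interaction with single libraries left out. Without both libraries it was 0.071, -0.049 and -0.123 in these, and 0.048 averaged.

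With single libraries left out, Flnc ran from -0.015 to 2.037 for the knockout with vehicle. For ifetroban in the wild type, Myoz2 ran from -0.864 to 0.063 and Ttn from -0.059 to 0.658. The interaction ran from -1.658 to 0.394 for Flnc, -1.424 to 0.221 for Synpo2l, -1.027 to 0.082 for Tpm3, -0.895 to 0.000 for Tpm2 and -0.055 to 0.665 for Ttn. The sign changed without KO vehicle replicate 1 for the first of these and for the interactions of Flnc, Synpo2l and Tpm3. That of Tpm2 reached 0.000 without this library. The interaction of Ttn changed sign without WT vehicle replicate 2. For ifetroban in the wild type the sign changed without WT vehicle replicate 1. Without both libraries, Flnc was at -0.168 for the knockout with vehicle, Myoz2 at 0.063 and Ttn at -0.059 in the wild type, and the interaction at 0.548 for Flnc, 0.229 for Synpo2l and 0.077 for Tpm3. With length offsets Ttn was at 0.008 for the knockout with ifetroban, -0.044 for ifetroban in the knockout and -0.176 in the wild type; with the class term it was at -0.019 in the knockout and -0.121 in the wild type. The offsets adjust for gene length by construction; the class term takes up whatever differs between the classes.

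The labels do not say that replicate numbers mark shared animals or days. Correlations of deviations between same-numbered libraries were all above 0, from 0.001 to 0.478, but not all over 0.1. In a group of 2 libraries the deviations mirror each other, so some of these values repeat. Between differently numbered libraries the correlations ran from -0.478 to 0.389. The numbers were not taken as pairs. A replicate block gave 45 called genes for the knockout with vehicle and 531 averaged, and averaged it called 2 of the 31 genes, Synpo2l at an edgeR adjusted p of 0.0365 and Cmya5 at 0.0449.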
